A study of Mus musculus with 46 samples.

Results

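The genes described here are 10 regulators of entry into and passage through mitosis, taken by name out of the 20999 genes of the deposited RNA tables. They were Cdc25a, Cdc25b and Cdc25c, Wee1 and Pkmyt1, Plk1 and Aurka, and Aurkb, Birc5 and Cdca8. Each of the 10 was found in the tables, and each passed the filter on low counts. The study compared proliferating microglia, the resident macrophages of the brain, between settings. Every sample came from male C57BL/6 mice. RNA was sequenced in 5 groups of 2 libraries. The adult group was 90 days old, untreated, wild type and labelled Ki67-negative. The postnatal day 8 (PND8) groups were untreated Ki67-rfp mice, which carry a fluorescent reporter of Ki67, sorted into Ki67-negative and Ki67-positive cells. The repopulation groups were Ki67-rfp mice of 75 days that had received PLX5622 for 17 days from day 55 and had then recovered for 3 days, sorted in the same way. PLX5622 inhibits the receptor CSF1R and depletes microglia, so the cells of these groups were those that survived the drug or arose after it. Peak lists covered 12 libraries of H3K27ac, 3 of Rpb2, 2 of H3K4me3 and 3 of ATAC. Their genotype label was wild type in each case, but the titles of the PND8 and repopulation ATAC samples name the Ki67-rfp strain, and this conflict was not resolved. For chromatin immunoprecipitation they were fixed and Ki67 was stained by antibody, so a Ki67-positive cell was defined by protein there and by the reporter in the RNA libraries. The H3K27ac lists also held cells of mice of 90 days after 4 weeks of cuprizone, a toxin that damages myelin, and of mice of 90 days that had received PLX5622 from day 70. The repopulation ATAC sample was from mice of 75 days that had received it from day 55, like those of the RNA libraries. Adult chromatin came from mice of 60 to 80 days.

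Entry into mitosis is driven by the kinase CDK1 bound to a B-type cyclin. WEE1, in the nucleus, and PKMYT1, at membranes, phosphorylate CDK1 and hold it inactive, and the CDC25 phosphatases remove those phosphates. Aurora A, made from Aurka, activates polo-like kinase 1, made from Plk1, which in turn acts on both CDC25 and WEE1. Aurora B, survivin and borealin, made from Aurkb, Birc5 and Cdca8, form the chromosomal passenger complex with the scaffold INCENP. That complex corrects faulty attachments of chromosomes to the spindle and later acts in cytokinesis. Microglia of the adult brain divide rarely, whereas they divide often in the first postnatal weeks and after depletion.

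The RNA libraries held 6865903 to 10287876 counts, with 13557 to 14728 genes detected. Mki67, the gene of Ki67 itself, was measured as a check of the labels. It stood at 13.4 and 11 CPM (counts scaled to a common library size) in the adult libraries, at 242.2 to 463.1 CPM in the 4 Ki67-negative libraries of PND8 and repopulation, and at 919.6 to 1107 CPM in the 4 Ki67-positive libraries. The Ki67-negative sorts of the dividing settings therefore carried more Mki67 RNA than adult microglia did. The listed markers of microglia summed to 6633 to 8677 CPM over 8 genes, with 0 of the 8 at 0 in any group. Markers of border macrophages (5 genes) summed to 593.7 to 851.5 CPM at PND8 and to 26.1 to 74.8 CPM in the adult and repopulation libraries. Of that list Mrc1 reached 833.6 CPM in 1 library, and Lyve1, the next highest, at most 27.1 CPM. Markers of monocytes or neutrophils (8 genes) summed to 61.7 and 211.7 CPM in the adult libraries and to at most 9.26 CPM in the others. The 5 genes of the neural progenitor list summed to 8.33 and 8.68 CPM in the adult libraries, 77.1 to 134.9 CPM in the Ki67-negative libraries and 107.2 to 220.3 CPM in the Ki67-positive libraries. Nes, an intermediate filament gene, reached 219.5 CPM of that sum, and 3 of the 5 genes were at 0 in the adult and the repopulation Ki67-negative libraries. Endothelial markers (5 genes) summed to 83.8 and 86.9 CPM in PND8 Ki67-negative against 51.0 and 51.9 CPM in PND8 Ki67-positive libraries, and to 64.9 and 72.0 against 45.9 and 46.6 CPM after repopulation, with Cldn5, a defining gene of that list, at most at 0.275 CPM. Erythroid markers (5 genes) summed to 23.1 to 75.4 CPM at PND8 and to at most 7.21 CPM elsewhere. Astrocyte markers (5 genes) ran from 51.4 to 366.9 CPM between the 2 PND8 Ki67-positive libraries and from 92.2 to 426.5 CPM between the 2 Ki67-negative ones, with Slc1a3 reaching 551.8 CPM in 1 library and each of the other 4 genes at most 12.6 CPM. The part of these other cells in the results was not tested. In bulk RNA, fewer cells that express a gene and less RNA per cell cannot be told apart. Each file header holds a number, here called its code, whose meaning no label gives. Replicate 1 of both PND8 groups shares a code, as do replicate 2 of both PND8 groups with replicate 1 of both repopulation groups, and replicate 2 of both repopulation groups. Both adult libraries have a code of their own, so that code, wild-type genotype and the adult group cannot be told apart.

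When Ki67-positive cells were set against Ki67-negative cells of the same setting, each of the 10 genes either rose or did not pass the test. At PND8, 7 of the 10 rose in Ki67-positive cells and 3 did not pass the test, against 2.75% of the 12230 tested genes that rose. After repopulation 6 of the 10 rose and 4 did not pass, against 1.87% of tested genes. None of the 10 fell in either comparison, where 3.15% and 0.867% of tested genes fell. That count depended on the fit: with the replicate number as a block, Cdc25a (-0.39, adjusted p = 0.0406) and Pkmyt1 (-0.52, adjusted p = 0.0110) fell at PND8 and Aurkb (0.84, adjusted p = 6.4e-04) rose after repopulation. The median log2 fold change of the 10 genes was 1.42 at PND8 and 1.39 after repopulation, and the medians over all tested genes were -0.03 and -0.00. Tests were edgeR's quasi-likelihood test on the counts with Benjamini-Hochberg adjustment over all 12230 genes and a threshold of 0.05. The labels call the 2 libraries of each RNA group independent biological replicates.

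**Figure D1:**
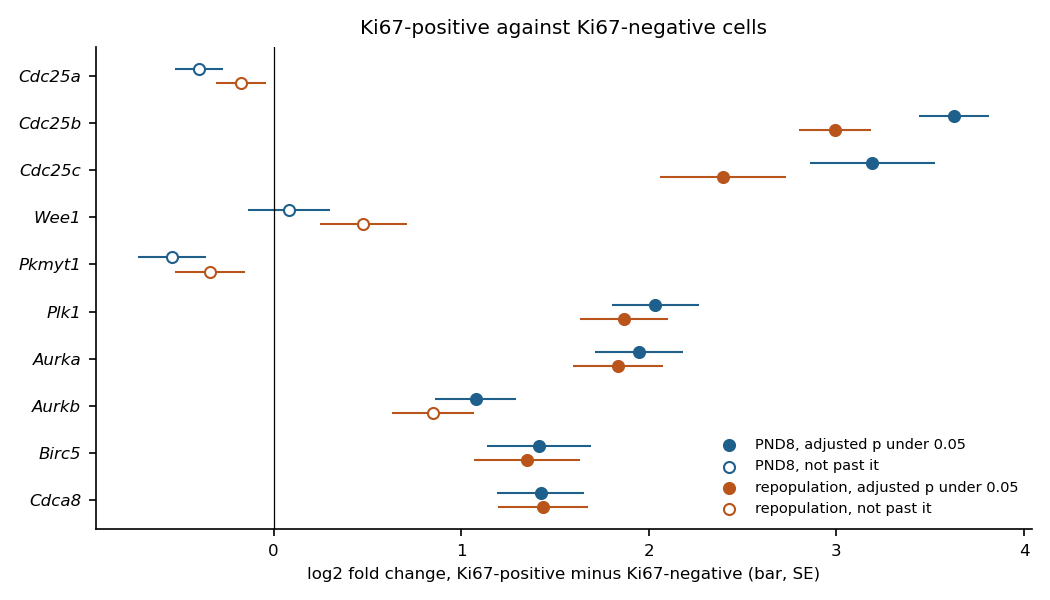
Log2 fold change of each gene in Ki67-positive against Ki67-negative microglia at PND8 (blue) and after repopulation (orange), with its standard error as the bar. Filled points passed an adjusted p of 0.05. Cdc25b lies farthest to the right at 3.63 and 2.99, and Cdc25a, Wee1 and Pkmyt1 lie nearest to 0.

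The phosphatases divided between these outcomes. Cdc25b and Cdc25c had the largest rises of the 10 genes in both settings, and Cdc25a did not pass the test in either. Cdc25b (NM_023117, mm10 chr2:131186948-131198511, plus strand) is the family member usually described as acting first, at the centrosome in late G2. It was measured at 6.25 and 5.74 CPM in adult microglia, at 8.29 and 11.6 CPM in PND8 Ki67-negative cells and at 110.5 and 139.6 CPM in PND8 Ki67-positive cells. After repopulation it was at 10.3 and 11.6 CPM in Ki67-negative cells and at 74.8 and 98.6 CPM in Ki67-positive cells. All 4 Ki67-positive libraries lay above the other 6, and the share of tested genes with that separation was not computed. Both Ki67-positive libraries lay above both Ki67-negative ones, a weaker separation, for 19.1% of tested genes at PND8 and 23.9% after repopulation. These shares also apply to the separations within a setting of Cdc25c, Plk1, Aurka, Aurkb, Birc5 and Cdca8 below. For Ki67-positive against Ki67-negative groups of different settings the share of tested genes was not computed. The Ki67-negative groups of the 2 settings overlapped. The log2 fold change was 3.63 ± 0.19 (SE, adjusted p = 2.7e-07, edgeR) at PND8, a 12.4-fold difference, and 2.99 ± 0.19 (adjusted p = 2.6e-06) after repopulation. Within the header codes the log2 differences were 3.70 and 3.56 at PND8 and 2.83 and 3.06 after repopulation.

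Cdc25c (NM_009860, mm10 chr18:34732995-34751533, minus strand) encodes the phosphatase in the loop by which CDK1 promotes its own activation. In the adult libraries it had 1 and 4 counts, which is 0.116 and 0.489 CPM. It stood at 2.23 and 6.15 CPM in PND8 Ki67-negative cells, 39.4 and 40.5 CPM in PND8 Ki67-positive cells, 4.68 and 6.55 CPM in repopulation Ki67-negative cells and 23.9 and 34.5 CPM in repopulation Ki67-positive cells. The Ki67-positive groups did not overlap with any other group, and the 2 Ki67-negative groups overlapped. Of tested genes, 33.8% had both repopulation Ki67-positive libraries below both PND8 Ki67-positive ones. Both Ki67-positive libraries lay above both adult ones for 39.2% of tested genes at PND8 and 38.3% after repopulation. The log2 fold change was 3.19 ± 0.33 (SE, adjusted p = 8.5e-05, edgeR) at PND8 and 2.40 ± 0.34 (adjusted p = 0.00122) after repopulation. The size of the PND8 value depended on the Ki67-negative libraries, which differed from each other: it was 4.18 when replicate 2 of the PND8 Ki67-negative cells was left out and 2.70 when replicate 1 was. Within the header codes the log2 differences were 4.01 and 2.67 at PND8 and 2.30 and 2.36 after repopulation.

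Cdc25a (NM_007658, mm10 chr9:109875579-109893890, plus strand) encodes the phosphatase that also acts at the start of S phase, through CDK2. It was at 26.4 and 28.7 CPM in adult microglia, 84.3 and 78.9 CPM in PND8 Ki67-negative cells, 64.8 and 59.1 CPM in PND8 Ki67-positive cells, 51.3 and 61.7 CPM in repopulation Ki67-negative cells and 44.5 and 55.7 CPM in repopulation Ki67-positive cells. Its highest libraries were thus the Ki67-negative ones of PND8, and the other 3 dividing groups overlapped in order: PND8 Ki67-positive with repopulation Ki67-negative, and the latter with repopulation Ki67-positive. For positive over negative cells the log2 fold change was -0.40 ± 0.13 (SE, adjusted p = 0.0923, edgeR) at PND8, where the groups did not overlap, and -0.17 ± 0.13 (adjusted p = 0.596) after repopulation. Of tested genes, 26.3% had both PND8 Ki67-positive libraries below both Ki67-negative ones. The PND8 difference passed the threshold as lower in Ki67-positive cells with no filter on low counts (adjusted p = 0.0405), with a block for the replicate number (adjusted p = 0.0406) and when the code was a term of the fit (adjusted p = 0.00483). Cdc25a had log2 differences within the header codes of -0.38 and -0.42 at PND8 and -0.20 and -0.15 after repopulation.

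**Figure D2:**
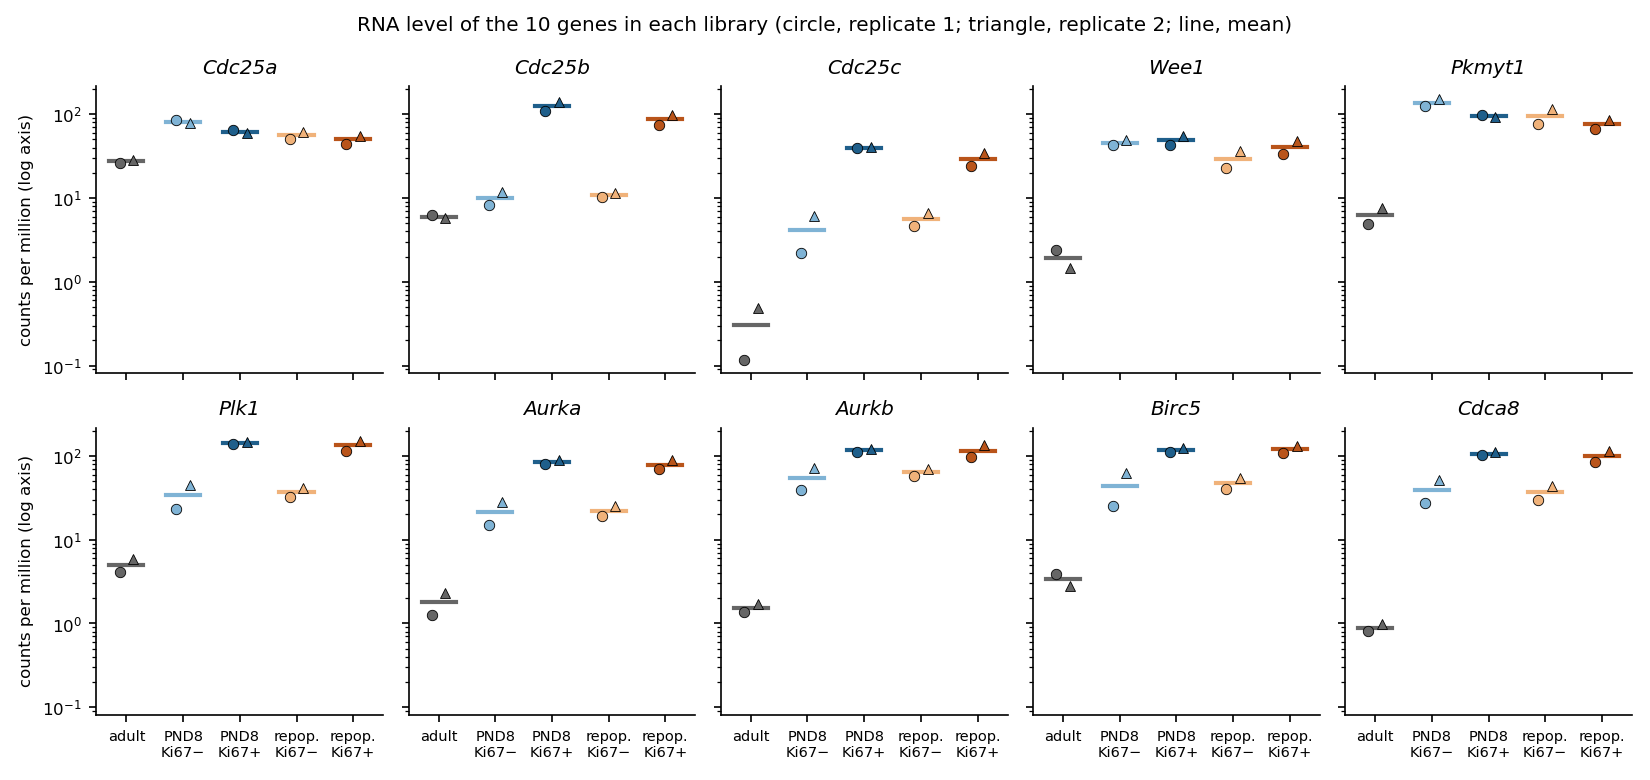
RNA level of each of the 10 genes in CPM on a log axis, in the 5 groups (circle, replicate 1; triangle, replicate 2; line, mean). In 7 panels the Ki67-positive groups stand above the Ki67-negative groups of the same setting, and in those of Cdc25a, Wee1 and Pkmyt1 the 4 dividing groups lie close together, above the adult group.

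Neither of the inhibitory kinases of CDK1 passed the test between Ki67-positive and Ki67-negative cells. Wee1 (NM_009516, mm10 chr7:110122059-110143299, plus strand) was at 2.43 and 1.47 CPM in adult microglia, 42.6 and 49.4 CPM in PND8 Ki67-negative cells, 42.6 and 55.0 CPM in PND8 Ki67-positive cells, 22.6 and 36.4 CPM in repopulation Ki67-negative cells and 33.8 and 47.8 CPM in repopulation Ki67-positive cells. In the order of their means, each of the 4 dividing groups overlapped with the next. Its log2 fold change was 0.08 ± 0.22 (SE, adjusted p = 0.888, edgeR) at PND8 and 0.48 ± 0.23 (adjusted p = 0.336) after repopulation. With the header code as a term the repopulation value of 0.48 passed the threshold (adjusted p = 0.0241). The PND8 value of Wee1 changed sign, to -0.02 when PND8 Ki67-negative replicate 1 was left out and to -0.08 when PND8 Ki67-positive replicate 2 was. Wee1 had log2 differences within the header codes of 0.0018 and 0.15 at PND8 and 0.58 and 0.39 after repopulation.

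Pkmyt1 (NM_023058, mm10 chr17:23726336-23736729, plus strand) was at 4.86 and 7.58 CPM in adult microglia, 124.1 and 151.3 CPM in PND8 Ki67-negative cells, 98.1 and 91.5 CPM in PND8 Ki67-positive cells, 76.6 and 115.7 CPM in repopulation Ki67-negative cells and 66.3 and 85.2 CPM in repopulation Ki67-positive cells. As for Cdc25a, its highest libraries were the Ki67-negative ones of PND8. Its log2 fold change was -0.54 ± 0.18 (SE, adjusted p = 0.104, edgeR) at PND8, where the groups did not overlap, and -0.34 ± 0.19 (adjusted p = 0.417) after repopulation, where they did. As given for Cdc25a, 26.3% of tested genes were separated in that direction at PND8. The PND8 difference passed as lower with no filter on low counts (adjusted p = 2.1e-04), with the replicate block (adjusted p = 0.0110) and with the header code (adjusted p = 0.00138). Pkmyt1 had log2 differences within the header codes of -0.34 and -0.72 at PND8 and -0.21 and -0.44 after repopulation. Pkmyt1 overlaps by 544 bases with Paqr4 on the opposite strand, and the headers do not state whether counting used strand, so reads in the overlap may belong to either gene. Paqr4, which was named after its values were seen, fell in Ki67-positive cells by 1.20 ± 0.14 (SE, log2, adjusted p = 1.5e-04, edgeR) at PND8 and by 0.73 ± 0.14 (adjusted p = 0.0138) after repopulation. The part of Paqr4 reads in the Pkmyt1 counts was not tested.

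Set against each other as TPM, a scale that divides by library total and transcript length, the phosphatases and the inhibitory kinases had a different balance in each sort. The sum of the 3 CDC25 genes was 40.2 and 43.4 TPM in PND8 Ki67-negative cells and 112.1 and 124.7 TPM in PND8 Ki67-positive cells. The sum of Wee1 and Pkmyt1 was 108.7 and 133.9 TPM in the former and 92.2 and 91.9 TPM in the latter. The ratio of the CDC25 sum to the kinase sum was therefore 0.370 and 0.324 in Ki67-negative and 1.22 and 1.36 in Ki67-positive libraries. After repopulation that ratio was 0.448 and 0.357 in Ki67-negative and 1.16 and 1.17 in Ki67-positive libraries. In adult microglia, where both sums were low (14.3 and 15.2 TPM for CDC25, 4.58 and 6.29 TPM for the kinases), the ratio was 3.11 and 2.42. All 4 Ki67-positive libraries lay above 1, all 4 Ki67-negative libraries of the dividing settings lay below 1, and the adult libraries were highest. Differences in this ratio were not tested.

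The family member that supplied most CDC25 RNA also differed between sorts. Cdc25a made up 77.4% and 78.6% of the CDC25 TPM sum in adult microglia, 85.7% and 75.5% in PND8 Ki67-negative cells and 71.2% and 70.5% in repopulation Ki67-negative cells. It made up 24.1% and 19.6% in PND8 Ki67-positive and 25.1% and 23.6% in repopulation Ki67-positive cells. There Cdc25b had the largest share, 48.4% and 55.2% at PND8 and 49.7% and 48.9% after repopulation, with Cdc25c at 27.5% and 25.2%, and at 25.2% and 27.4%. Among the kinases Pkmyt1 had the higher TPM level in each of the 10 libraries. Any Paqr4 reads counted for Pkmyt1 would enter that level and the ratio of the CDC25 sum to the kinase sum, and their part was not tested. The TPM table names another transcript than the count table for Cdc25b and Wee1, so their lengths there are not those of the counts. The depth behind a TPM value is not in its own table, and the count of the same gene gives it.

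**Figure D3:**
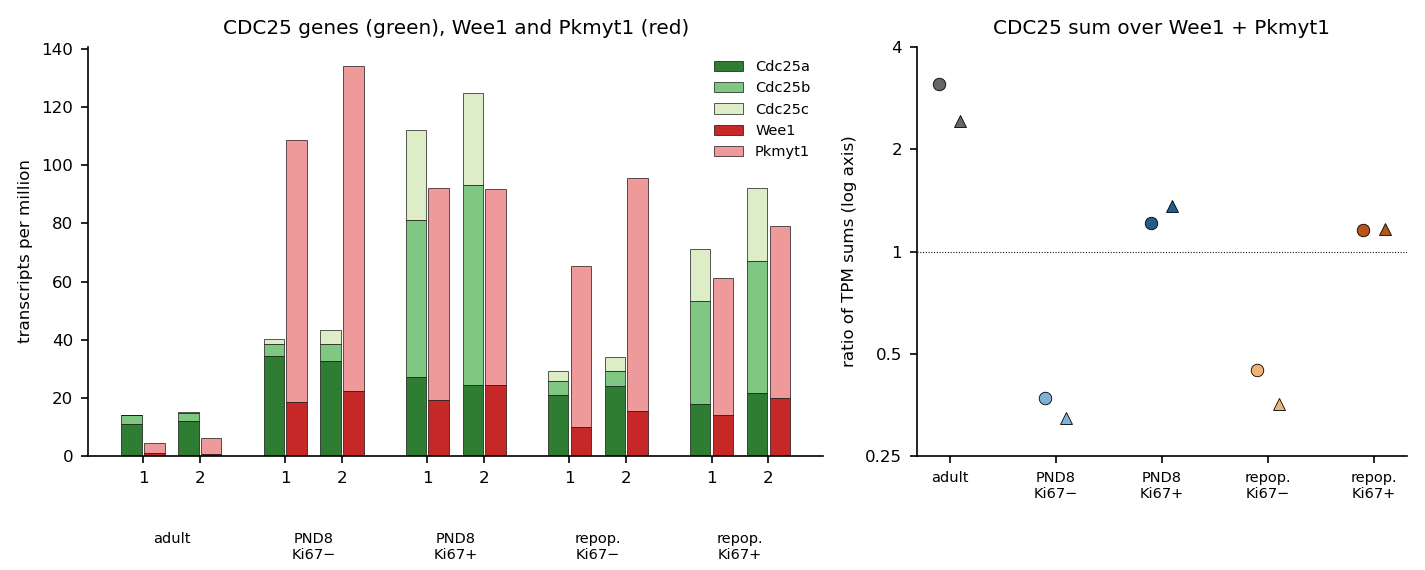
Left, stacked TPM of Cdc25a, Cdc25b and Cdc25c (green) beside Wee1 and Pkmyt1 (red) in each of the 10 libraries. Right, ratio of the 2 sums on a log axis (circle, replicate 1; triangle, replicate 2; dotted line, a ratio of 1). The Ki67-positive libraries lie between 1.16 and 1.36, and the Ki67-negative libraries of PND8 and repopulation lie between 0.324 and 0.448.

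Plk1 and Aurka, the mitotic kinases that act on one another and on the CDC25 switch, rose together in both settings. Plk1 (NM_011121, mm10 chr7:122159435-122169884, plus strand) was at 4.16 and 5.87 CPM in adult microglia, 23.4 and 45.5 CPM in PND8 Ki67-negative cells, 137.9 and 148.4 CPM in PND8 Ki67-positive cells, 32.3 and 41.4 CPM in repopulation Ki67-negative cells and 115.8 and 151.9 CPM in repopulation Ki67-positive cells. The 2 positive groups overlapped, as did the 2 negative groups, and the adult libraries were lowest. For Plk1 the log2 fold change was 2.04 ± 0.23 (SE, adjusted p = 1.6e-04, edgeR) at PND8 and 1.87 ± 0.23 (adjusted p = 5.0e-04) after repopulation. At PND8 it was 2.64 without Ki67-negative replicate 2 and 1.65 without replicate 1.

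Aurka (NM_011497, mm10 chr2:172356190-172370570, minus strand), the kinase of centrosomes and spindle poles, followed the same order. It was at 1.27 and 2.32 CPM in adult microglia, 14.9 and 28.4 CPM in PND8 Ki67-negative cells, 80.6 and 89.4 CPM in PND8 Ki67-positive cells, 19.4 and 25.1 CPM in repopulation Ki67-negative cells and 69.5 and 88.4 CPM in repopulation Ki67-positive cells. Its log2 fold change was 1.95 ± 0.23 (SE, adjusted p = 2.3e-04, edgeR) at PND8 and 1.84 ± 0.24 (adjusted p = 6.9e-04) after repopulation. At PND8 it was 2.54 without Ki67-negative replicate 2 and 1.58 without replicate 1. Within the header codes the differences at PND8 were 2.55 and 1.70 for Plk1 and 2.42 and 1.64 for Aurka. After repopulation they were 1.84 and 1.87 for Plk1 and 1.83 and 1.80 for Aurka. Over the 10 libraries the log2 CPM of Aurka and Plk1 had a Pearson correlation of 0.996, a description over groups that share their settings, with no test.

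Of the passenger complex genes all 3 rose at PND8, and Birc5 and Cdca8 rose after repopulation, with fold changes below those of Plk1 and Aurka whose difference was not tested. Aurkb (NM_011496, mm10 chr11:69045637-69051664, plus strand), the kinase of the complex, was at 1.39 and 1.71 CPM in adult microglia, 39.0 and 71.2 CPM in PND8 Ki67-negative cells, 112.3 and 122.1 CPM in PND8 Ki67-positive cells, 57.2 and 70.4 CPM in repopulation Ki67-negative cells and 96.7 and 133.3 CPM in repopulation Ki67-positive cells. The positive and negative groups did not overlap in either setting. Aurkb had a log2 fold change of 1.08 ± 0.22 (SE, adjusted p = 0.00924, edgeR) at PND8 and 0.85 ± 0.22 (adjusted p = 0.0566) after repopulation. Of tested genes, 23.9% had both repopulation Ki67-positive libraries above both Ki67-negative ones. The repopulation value of Aurkb passed the threshold in 7 of 19 fits, the one above included, among them the replicate block (0.84, adjusted p = 6.4e-04) and the fit to the 4 repopulation libraries alone (0.86, adjusted p = 0.0401). The PND8 value did not pass without PND8 Ki67-positive replicate 2 (1.05, adjusted p = 0.0767), and it was 1.62 without Ki67-negative replicate 2 and 0.72 without replicate 1.

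Birc5 (NM_001012273, mm10 chr11:117849237-117855743, plus strand) encodes survivin, which carries the complex to phosphorylated histone H3 at the centromere. It was at 3.93 and 2.81 CPM in adult microglia, 25.4 and 61.9 CPM in PND8 Ki67-negative cells, 111.1 and 125.3 CPM in PND8 Ki67-positive cells, 40.1 and 54.9 CPM in repopulation Ki67-negative cells and 107.6 and 133.1 CPM in repopulation Ki67-positive cells. Both positive groups lay above both negative groups, and PND8 Ki67-negative replicate 2 stood nearer to the positive libraries than replicate 1 did. Birc5 had a log2 fold change of 1.42 ± 0.28 (SE, adjusted p = 0.00773, edgeR) at PND8 and 1.35 ± 0.28 (adjusted p = 0.0193) after repopulation. At PND8 it was 2.25 without Ki67-negative replicate 2 and 0.93 without replicate 1, and it did not pass without Ki67-positive replicate 2 (1.36, adjusted p = 0.0678). After repopulation it did not pass with DESeq2 (1.33, adjusted p = 0.0758), with limma on log2(TPM + 0.1) (1.60, adjusted p = 0.0523), without Ki67-negative replicate 1 (1.13, adjusted p = 0.259) or without Ki67-positive replicate 2 (1.19, adjusted p = 0.168).

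Cdca8 (NM_026560, mm10 chr4:124918465-124936917, minus strand) encodes borealin, which joins survivin and INCENP in a bundle of helices. It was at 0.810 and 0.978 CPM in adult microglia, 27.6 and 51.2 CPM in PND8 Ki67-negative cells, 103.1 and 110.6 CPM in PND8 Ki67-positive cells, 29.7 and 43.7 CPM in repopulation Ki67-negative cells and 84.2 and 113.0 CPM in repopulation Ki67-positive cells. As for Aurkb and Birc5, groups of like sort overlapped across settings and groups of unlike sort did not. Cdca8 had a log2 fold change of 1.42 ± 0.23 (SE, adjusted p = 0.00233, edgeR) at PND8 and 1.44 ± 0.24 (adjusted p = 0.00441) after repopulation. After repopulation it did not pass without Ki67-negative replicate 1 (1.17, adjusted p = 0.0969) or without Ki67-positive replicate 2 (1.21, adjusted p = 0.0555). Within the header codes the PND8 differences were 1.52 and 0.78 for Aurkb, 2.12 and 1.01 for Birc5 and 1.89 and 1.11 for Cdca8. After repopulation they were 0.75 and 0.92 for Aurkb, 1.42 and 1.28 for Birc5 and 1.5 and 1.36 for Cdca8.

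Incenp, the scaffold of the complex, had another proportion to the other subunits in adult microglia than in the dividing groups. Its level was 13.1 and 11.1 TPM in adult microglia, against 1.07 and 1.32 TPM for Aurkb, 2.89 and 2.28 TPM for Birc5 and 0.758 and 0.911 TPM for Cdca8. The ratio of Incenp to Aurkb TPM was 12.2 and 8.45 in the adult libraries, 1.83 and 1.23 in PND8 Ki67-negative, 1.24 and 1.18 in PND8 Ki67-positive, 1.12 and 1.05 in repopulation Ki67-negative and 1.04 and 0.940 in repopulation Ki67-positive libraries. Adult microglia thus held Incenp RNA with little RNA of the other 3 subunits. Incenp rose in Ki67-positive cells by 0.83 ± 0.12 (SE, log2, adjusted p = 0.00118, edgeR) at PND8 and by 0.71 ± 0.13 (adjusted p = 0.00663) after repopulation. The ratio of Cdca8 to Aurkb TPM was 0.628 to 0.871 in the 4 Ki67-negative libraries of PND8 and repopulation and 1.03 to 1.11 in the 4 Ki67-positive libraries. For Aurkb over Aurka the ratio was 2.41 to 2.88 in those Ki67-negative libraries and 1.32 to 1.46 in the Ki67-positive ones. These ratios were not tested, and the TPM table names another transcript than the count table for Incenp, Aurka and Birc5.

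**Figure D4:**
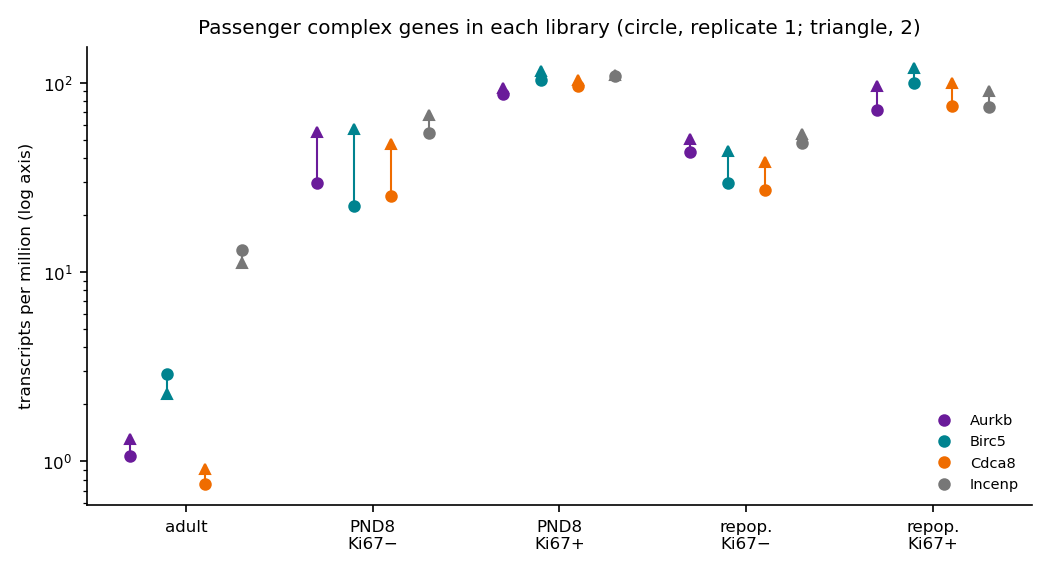
TPM of Aurkb, Birc5, Cdca8 and Incenp on a log axis in the 5 groups (circle, replicate 1; triangle, replicate 2; line, the span between them). In the adult group Incenp stands at 11.1 to 13.1 TPM and the other 3 genes stand below 3 TPM, whereas in the Ki67-positive groups the 4 genes lie together.

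Other genes of the same pathway, from a list of 39 of which 37 were tested (Aurkc and Wee2 did not pass the filter on low counts), were given for comparison. At PND8 22 of the 37 rose and 2 fell, and after repopulation 20 rose and 1 fell, with medians of 0.83 and 0.85. Over all tested genes 2.75% rose and 3.15% fell at PND8, and 1.87% rose and 0.867% fell after repopulation. CDK1 itself and its cyclins rose, 4 of 4 in each setting. Cdk1 rose by 0.78 ± 0.15 (SE, log2, adjusted p = 0.00674, edgeR) at PND8 and by 0.85 ± 0.16 (adjusted p = 0.00790) after repopulation, and Ccnb1, cyclin B1, by 2.46 ± 0.20 (adjusted p = 1.4e-05) and 2.24 ± 0.20 (adjusted p = 6.4e-05). Of the relatives and activators of the polo and aurora kinases 4 of 7 rose at PND8 and 3 of 7 after repopulation. Nek2, a centrosomal kinase, had the largest rise of the list at PND8 (2.84 ± 0.25), and Cdc20, the activator of the anaphase-promoting complex, had the largest after repopulation (2.83 ± 0.26). Of the partners of the passenger complex 9 of 10 rose at PND8 and 8 of 10 after repopulation, and of the degradation genes 3 of 5 rose in each setting. The checkpoint kinases Atr, Chek1 and Chek2 gave 0 rises, and Chek1 fell at PND8 by 1.34 ± 0.31 (adjusted p = 0.0207), the smaller of the 2 falls. Mybl2, a transcription factor of the late G1 and S phases, had the largest fall, by 1.39 ± 0.26 (adjusted p = 0.00562) at PND8 and by 1.13 ± 0.26 (adjusted p = 0.0375) after repopulation. In the greatwall branch, which restrains the phosphatase PP2A, 1 of 5 rose in each setting.

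Whether the Ki67 difference itself depended on the setting was tested as an interaction. None of the 10 genes passed, nor did any of the 12230 tested genes (0%). At an unadjusted p under 0.05, edgeR gave 1 of the 10 genes and 613 genes in all, and DESeq2 called 3 genes after adjustment. The largest differences were those of Cdc25c (-0.79 ± 0.48, SE, log2, adjusted p = 0.960, edgeR) and Cdc25b (-0.64 ± 0.27, adjusted p = 0.960), whose negative sign means a smaller value after repopulation. The other 8 lay between -0.22 and 0.40. Equal responses are not shown by a test that was not passed.

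Each of the 10 genes rose over adult microglia in each of the 4 dividing groups. Such rises were found for 25.1% of tested genes in PND8 Ki67-positive, 25.4% in PND8 Ki67-negative, 23.9% in repopulation Ki67-positive and 21.5% in repopulation Ki67-negative cells. The 4 comparisons share the 2 adult libraries. The medians of the 10 genes were 4.98, 3.76, 4.94 and 3.84 on the log2 scale in that order, and those of all tested genes lay between -0.01 and 0.03. Cdc25a rose least in Ki67-positive cells, by 1.17 ± 0.14 (SE, log2, adjusted p = 1.3e-05, edgeR) at PND8 and by 0.86 ± 0.14 (adjusted p = 2.5e-04) after repopulation. At PND8 Cdc25c rose most, by 7.0 ± 0.52, a value that rests on 1 and 4 counts in the adult libraries. Cdca8 came next with 6.88 ± 0.40, on 7 and 8 adult counts, and Aurkb with 6.23 ± 0.35, on 12 and 14. Over 18 fits the PND8 rise ran from 4.71 to 8.26 for Cdc25c and from 5.77 to 7.02 for Cdca8. The order of these genes thus depended on the fit. Cdc25c and Cdca8 had too few adult counts to pass the filter on low counts through the adult group. They were kept through dividing groups, where they are high. The filter thus favours a rise of these genes over adult microglia, and their rises are no independent support.

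In Ki67-negative cells the order over adult microglia was another. Aurkb and Cdca8 rose most, by 5.15 ± 0.36 and 5.46 ± 0.42 (SE, log2) at PND8 and by 5.35 ± 0.36 and 5.32 ± 0.43 after repopulation. The inhibitory kinases rose there too, Wee1 by 4.55 ± 0.32 and Pkmyt1 by 4.47 ± 0.24 at PND8, and by 3.88 ± 0.34 and 3.95 ± 0.24 after repopulation. The corresponding values in Ki67-positive cells were 4.63 ± 0.32 and 3.93 ± 0.24 at PND8 and 4.36 ± 0.33 and 3.61 ± 0.25 after repopulation. Cdc25b rose least, by 0.75 ± 0.24 (adjusted p = 0.0206, edgeR) at PND8 and by 0.86 ± 0.24 (adjusted p = 0.0134) after repopulation. Both Cdc25b calls were lost without adult replicate 1 (0.81, adjusted p = 0.0690, and 0.92, adjusted p = 0.0529) and without adult replicate 2 (0.69, adjusted p = 0.105, and 0.80, adjusted p = 0.0787). They were also lost without PND8 Ki67-negative replicate 2 (0.44, adjusted p = 0.258) and without repopulation Ki67-negative replicate 2 (0.78, adjusted p = 0.0715), and the PND8 call was lost in the fit to the groups compared alone (0.72, adjusted p = 0.10).

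Between settings, few of the 10 genes passed the test. In Ki67-positive cells Cdc25b was lower after repopulation than at PND8 (log2 fold change -0.53 ± 0.16, SE, adjusted p = 0.0204, edgeR), and the other 9 did not pass, against 30.9% of tested genes called in either direction. The Cdc25b call was lost without PND8 Ki67-positive replicate 2 (-0.38, adjusted p = 0.192), without repopulation Ki67-positive replicate 1 (-0.37, adjusted p = 0.188) and with limma on log2(TPM + 0.1) (-0.61, adjusted p = 0.0522). With the header code as a term 9 of the 10 were called lower after repopulation, all but Birc5 (-0.48), for example Cdc25c at -0.92 and Wee1 at -0.71. The fit without that term called 14.2% of tested genes lower, and the share called lower with it is not given here. That term compares the settings through code-sharing libraries, and code and setting overlap only in part. Only replicate 2 of PND8 and replicate 1 of repopulation share a code across settings, so few libraries carry this count. In Ki67-negative cells Cdc25a (-0.53 ± 0.13, adjusted p = 0.00606), Wee1 (-0.66 ± 0.23, adjusted p = 0.0346) and Pkmyt1 (-0.53 ± 0.18, adjusted p = 0.0359) were lower after repopulation, against 36.6% of tested genes called. With the header code as a term Cdca8 was called lower as well (-0.56, adjusted p = 0.0114). None of the 3 passed without repopulation Ki67-negative replicate 1 (-0.40, -0.34 and -0.25). Without PND8 Ki67-negative replicate 2, Wee1 and Pkmyt1 did not pass (-0.53 and -0.36), and Cdc25c (1.32), Plk1 (0.67), Aurkb (0.73) and Birc5 (0.91) were called higher after repopulation. Pkmyt1 was lost as well without either PND8 Ki67-positive library (-0.50 each, adjusted p = 0.0583 and 0.0575).

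The genes whose RNA was most like each of the 10 over the 10 libraries were found by the Pearson correlation of log2 CPM, as a description with no test, since the libraries share groups, sorts and header codes. For Cdc25a they were Gins1 (0.994) and Topbp1 (0.991), for Pkmyt1 Chaf1a (0.994) and Cdc7 (0.993), and for Wee1 Zwilch (0.995) and Blm (0.994). For Plk1 they were Nek2 (0.999) and Cenpa (0.998), and for Cdc25c the same genes in the other order (0.997 each). For Aurka they were Hmmr and Fam83d (0.997 each), for Aurkb Cenpw and Ttk (0.997 each), for Cdca8 Kif22 and Ttk (0.999 each) and for Birc5 Ube2c and Smc4 (0.996 each). Cdc25b stood with Tubb4b (0.989) and Cep89 (0.988). Among the 10 genes themselves the lowest correlation was that of Cdc25a with Cdc25b, at 0.286.

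The promoters of these genes were compared in the peak lists, taking a window of 1000 bp on each side of the start site and counting any overlap of at least 1 bp. Peaks were called by the authors in each library by itself, so a missing peak means that none was called there. In adult microglia all 10 promoters held an H3K4me3 peak in both lists (where 90.6% and 90.4% of genes kept by the count filter did) and an ATAC peak (88.3% of them). H3K4me3 is a mark of promoters, and ATAC measures open chromatin. H3K27ac, a mark of active promoters and enhancers, was called at 3 of the 10 in adult replicate 1 (69.5% of kept genes, 41.3% of all genes) and at 6 of the 10 in adult replicate 2 (77.1%, 46.0%). Both lists held it at Cdc25a, Aurka and Birc5, where the Birc5 peaks were centred upstream, at -854 and -940 bases from the start site. Neither list held it at Cdc25b, Cdc25c, Plk1 or Aurkb. Those 4 promoters thus had H3K4me3 and open chromatin in adult microglia with no H3K27ac call, a state found at 10.5% of kept genes and 8.69% of all genes. Their H3K4me3 peaks differed in strength. Cdc25c had the weakest of the 10 genes, at 53.0 and 41.8 normalised tags and percentiles 28.8 and 25.6 of the lists. Those of Cdc25b, Plk1 and Aurkb stood at percentiles 46.1 to 64.2.

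In PND8 Ki67-positive cells H3K27ac was called at 10 of 10 promoters in both replicates (82.6% and 84.8% of kept genes). In PND8 Ki67-negative cells it was called at 9 of 10 in both (81.2% and 82.8%), with Cdc25c the one without. Cdc25c was so in each list of Ki67-negative cells: its promoter had a peak in 5 of the 12 H3K27ac lists, all from Ki67-positive cells. The Cdc25c peak covered 1494 and 1870 bases of the window at PND8, 630 and 1431 after cuprizone and 1489 in repopulation replicate 1. Repopulation Ki67-positive replicate 2 had no peak at Cdc25c. A call in both PND8 Ki67-positive lists and in neither PND8 Ki67-negative list was found at 0.809% of kept genes. A call in both PND8 Ki67-positive lists and in neither adult list was found at Cdc25b, Cdc25c, Plk1 and Aurkb, and at 5.59% of kept genes. After cuprizone 4 and 9 promoters had H3K27ac in Ki67-negative cells (73.6% and 82.8% of kept genes) and 8 and 10 in Ki67-positive cells (77.0% and 84.5%). In repopulation Ki67-positive cells it was called at 10 and 9 (84.0% and 79.8%). Over the 12 lists the number with a call was 12 for Aurka and Birc5, 11 for Cdc25a and Wee1, 10 for Cdc25b and Pkmyt1, 9 for Aurkb and Cdca8, 8 for Plk1 and 5 for Cdc25c. A call in all 12 lists was found at 2 of the 10 genes, against 64.3% of kept genes and 38.1% of all genes.

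How much of the window the H3K27ac peaks covered also differed. The median over the 10 genes was 0 and 570 bases in the adult lists, 1076.5 and 1198.5 in PND8 Ki67-negative and 1864 and 1975 in PND8 Ki67-positive cells, out of 2001. Over all kept genes the medians were 1028.5 and 1270 in the adult lists, 1300 and 1404 in PND8 Ki67-negative and 1390 and 1564 in PND8 Ki67-positive cells. The median of the 10 promoters was thus below that of kept genes in the adult and PND8 Ki67-negative lists and above it in the PND8 Ki67-positive lists. After cuprizone the medians were 0 and 1054.5 bases in Ki67-negative cells (1175 and 1410 over kept genes) and 1116 and 1748.5 in Ki67-positive cells (1242 and 1489), so replicate 1 of the Ki67-positive cells was below kept genes and replicate 2 above. In repopulation Ki67-positive cells they were 1860 and 1635.5 (1496 and 1382). At Plk1 the covered part was 792 and 818 bases in PND8 Ki67-negative and 1895 and 2001 bases in PND8 Ki67-positive cells. At Aurkb it was 1288 and 1384 against 2001 in both, and at Cdca8 it was 757 and 829 against 1866 and 1949. The Aurkb window met 2 peaks in PND8 Ki67-negative replicate 1, the stronger centred at -1788 bases from the start site. In the PND8 Ki67-positive lists it met 1 peak, 2831 and 3067 bases wide. Whether the wider peaks join an upstream one was not tested. Wee1 was covered over the whole window in both PND8 sorts, and Cdc25a had 1004 and 1195 bases in Ki67-negative and 1009 and 1148 bases in Ki67-positive cells. The start of Cstf1 lies 433 bp from that of Aurka and the start of 9930104L06Rik lies 131 bp from that of Cdca8, each on the opposite strand, so peaks there cannot be assigned to 1 gene. Cdc25b, Plk1, Aurkb and Cdc25c had no other start in the window.

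The lists differed in quality along the same lines in part. Adult H3K27ac replicate 1 held 19572 peaks with 32.6% of its tags in peaks, and the other 11 lists held 24082 to 30539 peaks. Within the header code that replicate 2 of the adult, PND8 Ki67-negative and PND8 Ki67-positive lists share, the numbers were 6, 9 and 10 of 10 promoters, and repopulation Ki67-positive replicate 1 of that code had 10. Within the code that replicate 1 of both PND8 and both cuprizone sorts share, they were 9 and 10 at PND8 and 4 and 8 after cuprizone. The part of list quality in the counts was not tested.

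Rpb2, a subunit of RNA polymerase II, was called at 10 of 10 promoters in the 1 list of PND8 Ki67-positive cells (80.4% of kept genes), and at 3 and 1 in the adult lists (60.7% and 51.7%). Birc5 had a peak in each of the 3 lists, Cdc25a and Wee1 in adult replicate 1 as well, and the other 7 in PND8 Ki67-positive cells alone. A call there and in neither adult list was found at 16.9% of kept genes. The PND8 list held 31602 peaks and the adult lists 14550 and 10544, so this difference and the number of peaks called cannot be told apart. Per the file headers, the PND8 list and adult replicate 1 used an input named for H3K27ac and adult replicate 2 one named for Rpb2, whereas the labels pair the PND8 sample with an Rpb2 input. ATAC peaks were called at 10 of 10 promoters in PND8 Ki67-positive (89.2% of kept genes) and repopulation Ki67-positive cells (90.8%) as well. Plk1 and Aurkb had the weakest adult ATAC peaks of the 10, each at 22.5 normalised tags, at percentile 33.5 of that list, and Cdc25c the strongest, at 323.5 normalised tags and percentile 98.7.

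**Figure D5:**
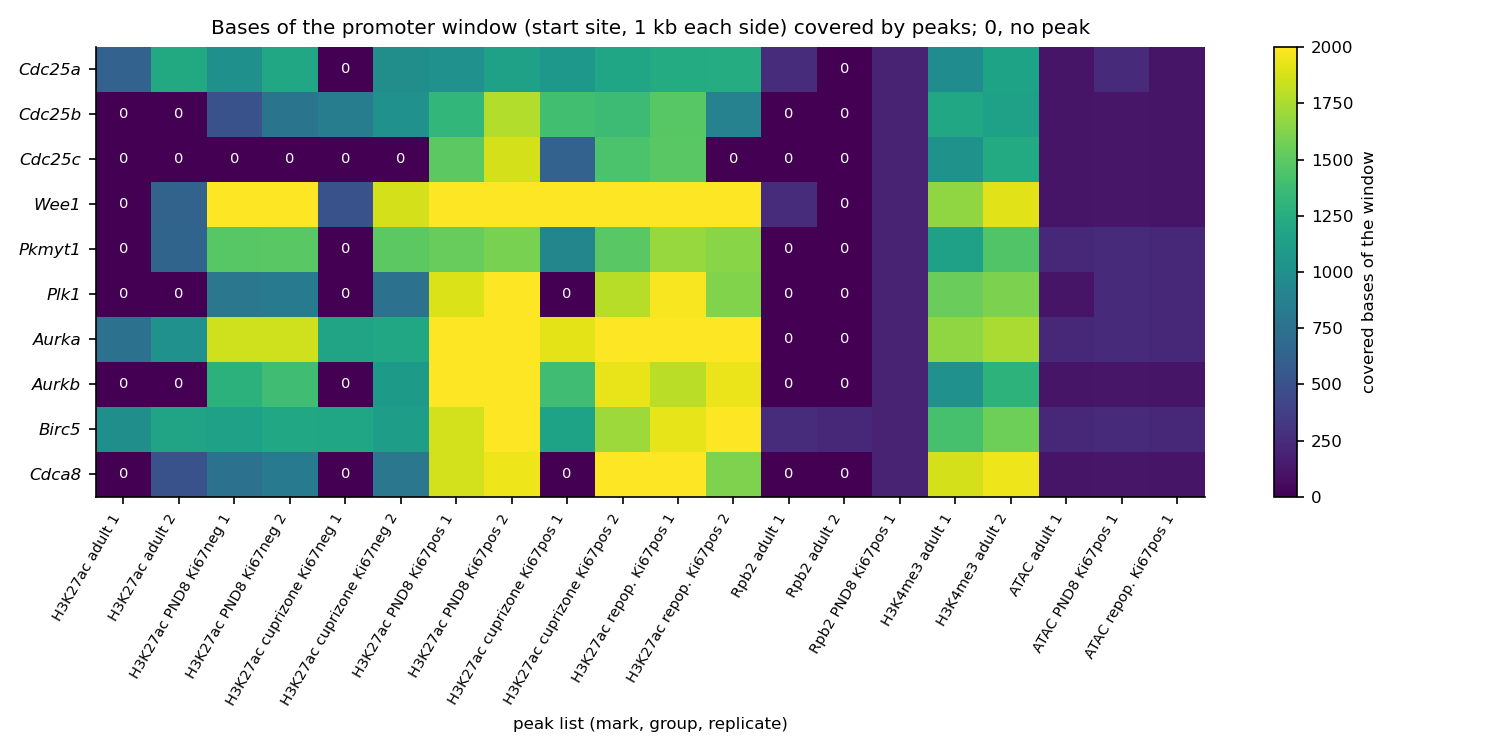
Bases of the promoter window (1 kb on each side of the start site) covered by peaks, for the 10 genes (rows) in the 20 peak lists (columns); cells marked 0 had no peak. In the H3K27ac columns the adult lists have 7 and 4 empty cells and the PND8 Ki67-positive lists have 0. Cdc25c is empty in each Ki67-negative list and in repopulation Ki67-positive replicate 2.

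The promoter sequences are shown for the 6 of the 10 genes that the RefSeq promoter table held, to set the genes that rose in Ki67-positive cells (Cdc25b, Aurka, Cdca8, Plk1, Birc5) beside one that did not pass that test (Cdc25a). Each is the 150 bases before the start site, 5′ to 3′ on the gene's own strand, in the GRCm38.p6 assembly, which is mm10. Capitals mark CCAAT or its reverse ATTGG, the CHR letters TTTGAA or TTTAAA, and the E2F letters. These were TTTCCCG and TTTGGCG, and as further forms TTTCGCG and TTTGCCG, or the reverse complement of each.
Cdc25b, chr2:131186798-131186947, plus strand: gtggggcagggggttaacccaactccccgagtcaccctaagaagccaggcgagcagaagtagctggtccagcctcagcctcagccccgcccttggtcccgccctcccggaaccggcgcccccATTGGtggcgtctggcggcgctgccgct
Aurka, chr2:172370571-172370720, minus strand: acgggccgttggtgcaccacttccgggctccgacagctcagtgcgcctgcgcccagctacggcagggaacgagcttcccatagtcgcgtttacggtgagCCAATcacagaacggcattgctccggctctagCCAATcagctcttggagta
Cdca8, chr4:124936918-124937067, minus strand: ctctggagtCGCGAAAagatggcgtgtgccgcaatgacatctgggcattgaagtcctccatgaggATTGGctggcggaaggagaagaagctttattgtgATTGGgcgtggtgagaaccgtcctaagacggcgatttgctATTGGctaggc
Plk1, chr7:122159285-122159434, plus strand: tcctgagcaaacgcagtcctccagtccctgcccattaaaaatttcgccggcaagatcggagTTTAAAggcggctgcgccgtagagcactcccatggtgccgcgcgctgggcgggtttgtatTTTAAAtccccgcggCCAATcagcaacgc
Birc5, chr11:117849087-117849236, plus strand: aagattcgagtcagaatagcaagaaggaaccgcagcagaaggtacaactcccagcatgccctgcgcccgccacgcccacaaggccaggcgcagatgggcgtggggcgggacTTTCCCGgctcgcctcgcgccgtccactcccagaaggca
Cdc25a, chr9:109875429-109875578, plus strand: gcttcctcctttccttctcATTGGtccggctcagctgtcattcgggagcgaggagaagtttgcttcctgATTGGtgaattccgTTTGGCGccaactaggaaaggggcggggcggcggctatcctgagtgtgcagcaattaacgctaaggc

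CCAAT boxes are bound by the factor NF-Y, the CHR letters belong to promoters of late cell cycle genes, and E2F sites to those of genes of G1 and S phase. Over the whole promoter of the table, 250 bases before to 50 after the start and on both strands, CCAAT was found in 5 of the 6 (37.4% of 32851 promoters), the CHR letters in 4 of the 6 (27.6%) and the E2F letters in 3 of the 6 (6.7%). Both CCAAT and the CHR letters were found in Aurka, Cdca8 and Plk1, and in 10.7% of all promoters. In Plk1 CCAAT began at position -14 and TTTAAA at -89 and -29, counted from the start site. In Aurka CCAAT began at -51 and -19, and TTTAAA and TTTGAA at 18 and 33. In Cdca8 the reverse ATTGG began at -85, -51, -11 and 19, TTTGAA at 14 and the reverse of TTTCGCG at -141. Cdc25a had ATTGG at -131 and -81 and TTTGGCG at -67, Birc5 had TTTCCCG at -39 and TTTAAA at -220, and Cdc25b had ATTGG at -28. A match of letters is a description of these windows and not a measured site, and promoters of Wee1, Pkmyt1, Aurkb and Cdc25c were not analysed here.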

How the data were processed

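The 10 genes and the gene lists were chosen with earlier results of these data known. The authors counted reads with HOMER over exons of mm10, with 1 transcript per gene, at most 3 tags per position and no adjustment of the counts, per the file headers. The strand setting is not given in the sources used here. HOMER also gave the deposited TPM (per the file headers), with another transcript for 4532 genes. The submitters' processing notes name STAR 2.7.0f, Bowtie2 2.3.4.1, HOMER 4.11 and DESeq2, with the builds mm10 and GRCm38. Per the labels, polyA RNA of sorted cells was made into stranded libraries.

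Counts were tested with edgeR 4.0.16 in R 4.3.3 (TMM, filterByExpr, 12230 of 20999 genes kept, common coefficient of variation 0.0957), with all 10 libraries in 1 quasi-likelihood fit and Benjamini-Hochberg adjustment within each of 9 comparisons at 0.05. CPM used TMM-scaled library sizes. TPM values were compared as ratios, and as an alternative with limma 3.58.1 on log2(TPM + 1) and log2(TPM + 0.1). On counts simulated for the PND8 Ki67 comparison over 12230 genes, the code called 82 of 98 genes changed by 1 on the log2 scale and 102 of 102 changed by 2, with 0 wrong signs, and 10 unchanged genes.

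Peaks were called by the authors in each library with HOMER, per the file headers. Peak signal, the deposited tags scaled to a common depth, described peaks within a list, and the deposited HOMER score of each peak entered only an alternative threshold. ATAC headers name no build, and their positions were read as mm10. Promoter windows were 1000 bp on each side of the start in the count table, and promoter sequences came from the RefSeq table of GRCm38.p6. Named genes were the 10, Mki67, Incenp, Cdk1, Ccnb1 and, per Ki67 comparison, the called pathway gene with the largest rise and fall; Chek1, the other falling gene, Paqr4 and the neighbours Cstf1 and 9930104L06Rik were chosen after their values were seen. Alternatives were other scalings and tools, no filter, fewer groups, a replicate block, the header code and leaving out each library. Cdc25c sequence was not printed here.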

Additional observations from a re-analysis of the deposited data

How the results depend on the processing

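Counting over the 10 genes, 170 of 180 alternative values of the PND8 Ki67 comparison and 166 of 180 of the repopulation Ki67 comparison kept their direction and their side of the threshold. In the comparisons of Ki67-positive cells with adult cells 170 of 170 did in each setting. Leaving out a library leaves 1 in its group that is assumed to vary like the other groups.

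Counts of genes called over the whole table moved with the setting. The PND8 Ki67 count of 721 became 1290 with no filter on low counts, 475 with limma on log2(TPM + 0.1), 392 with only the groups compared, 1228 with the replicate block and 1862 once the header code was a term, and 220 to 1113 with 1 library left out. The repopulation Ki67 count of 335 became 736 with no filter, 202 with log2(TPM + 0.1), 711 with the block and 1213 with the code, and 105 to 627 with 1 library left out. The interaction count of 0 became 3 with DESeq2, 52 with no filter, 2 with the block and 28 with the code, and 0 to 71 with 1 library left out. With 1 library left out the counts were 3640 to 6205 for repopulation Ki67-positive and 3078 to 5526 for repopulation Ki67-negative against adult, and 2269 to 4523 and 2869 to 4725 for repopulation against PND8 in Ki67-positive and Ki67-negative cells.

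The number of the 10 genes called between repopulation and PND8 Ki67-positive cells, 1, became 2 with library sizes only, 2 with no filter, 0 with log2(TPM + 0.1), 3 with only the groups compared, 2 with the replicate block and 9 with the code, and 0 to 2 with 1 library left out. The share of all tested genes called in the fit with the code is not given here. In Ki67-negative cells the 3 became 1 with log2(TPM + 0.1) and 0 to 5 with 1 library left out. With 1 library left out the 7 called at PND8 became 5 to 7 and the 6 called after repopulation became 4 to 7. Between repopulation and PND8 Ki67-positive cells Cdc25a also passed with library sizes only (-0.38, adjusted p = 0.0424), Cdc25c with only the groups compared (-0.46, adjusted p = 0.0420), and Pkmyt1 with no filter, with only the groups compared and with the replicate block (-0.33, -0.33 and -0.35).

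Signs changed for values near 0. The interaction of Cdca8 was -0.0446 with DESeq2, -0.0909 with log2(TPM + 1), -0.0913 with log2(TPM + 0.1), -0.0389 with the block and -0.0270 with the code. Repopulation against PND8 in Ki67-positive cells gave Birc5 at -0.0424 with library sizes only, -0.002001 and -0.002056 on the TPM scales and -0.48 with the code. In Ki67-negative cells the code gave Cdc25b -0.21, Cdc25c -0.0638, Plk1 -0.30, Aurka -0.36, Aurkb -0.19 and Birc5 -0.34, and called Cdca8 lower (-0.56, adjusted p = 0.0114), and library sizes only gave Plk1 -0.0315, Aurka -0.0939 and Birc5 -0.0136. With 1 library left out, Wee1 ran from -0.0811 to 0.29 in the PND8 Ki67 comparison. Interaction values ran from -0.0771 to 0.52 for Pkmyt1, -0.79 to 0.22 for Plk1, -0.72 to 0.26 for Aurka, -0.78 to 0.13 for Aurkb, -0.91 to 0.42 for Birc5 and -0.56 to 0.38 for Cdca8. Repopulation against PND8 ran, in Ki67-positive cells, from -0.31 to 0.0622 for Plk1, -0.29 to 0.0337 for Aurka, -0.28 to 0.16 for Aurkb, -0.14 to 0.15 for Birc5 and -0.34 to 0.0577 for Cdca8. In Ki67-negative cells it ran from -0.10 to 0.41 for Cdc25b, -0.16 to 1.32 for Cdc25c, -0.32 to 0.67 for Plk1, -0.37 to 0.59 for Aurka, -0.16 to 0.73 for Aurkb, -0.40 to 0.91 for Birc5 and -0.50 to 0.41 for Cdca8. The cause of these shifts was not tested.

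Requiring peaks to cover at least 50% of the promoter window left 0 and 3 of the 10 genes in the adult H3K27ac lists, 2 in cuprizone Ki67-negative replicate 1, 0, 0 and 0 in the Rpb2 lists and 0, 0 and 0 in the ATAC lists, whose peaks are narrower than that. Requiring a peak score at or above the list's median left 2 in adult H3K27ac replicate 2, 4 in PND8 Ki67-negative replicate 1, 2 in cuprizone Ki67-negative replicate 1, 4 in cuprizone Ki67-positive replicate 1, 5 and 5 in the repopulation lists and 6 and 3 in the H3K4me3 lists. Lists whose number moved little are left out here. The share of kept genes under these 2 rules was not computed, and a cut at the median removes peaks from every list. These drops are therefore not a result about the 10 genes. Samples with the same replicate number deviated together with a correlation of 0.338 at PND8 and 0.263 after repopulation, and other pairs of groups lay between -0.01 and 0.10, and the 2 correlated pairs also share header codes by number. The labels do not say that a number marks a shared animal, litter or day, so the fit without the block was kept, and the calls of Cdc25a, Pkmyt1 and Aurkb differ with the block. The header code could not be fitted for comparisons with adult cells.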

Other observations

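Of the 37 other pathway genes tested, 32 were above the adult level in PND8 Ki67-positive cells (25.1% of all tested genes), 30 in PND8 Ki67-negative (25.4%), 31 in repopulation Ki67-positive (23.9%) and 27 in repopulation Ki67-negative cells (21.5%). These comparisons share the adult libraries. Between repopulation and PND8, 33 of the 37 did not pass in Ki67-positive cells and 31 did not in Ki67-negative cells, where 30.9% and 36.6% of all tested genes were called. Mki67 itself did not pass between the 2 Ki67-positive groups (-0.01 ± 0.14, SE, log2, adjusted p = 0.97, edgeR), and it was higher after repopulation than at PND8 in the Ki67-negative groups (0.61 ± 0.15, adjusted p = 0.00595), where the mean level of none of the 10 genes was called higher. The ratio of Pkmyt1 to Wee1 TPM was 2.76 to 3.77 in the 4 Ki67-positive libraries and 4.87 to 5.58 in the Ki67-negative libraries of PND8 and repopulation, a difference that was not tested. The part of Paqr4 reads in this ratio was not tested either.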
